A study of Mus musculus with 6 samples.

Results

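The genes of fibroblast growth factor (FGF) signalling were read in mouse mandibular first molars with and without Lhx6, in the apical part of the region where the furcation forms (FDR). They were taken by symbol as the FGF ligands, the FGF receptors, the Klotho and FLRT proteins, the Sprouty and Spred inhibitors, Dusp6, Etv4 and Etv5. Of the 42 names looked for, 37 were measured among 23594 genes, and 36 of these could be tested. Fgf4, Fgf15, Fgf20, Kl and Spry3 were not analysed here. The furcation is the part of a molar where the roots divide, and Lhx6 encodes a LIM homeodomain transcription factor of the dental mesenchyme.

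Both groups were C57BL/6 mice at PN4.5, that is postnatal day 4.5. The control group was wild type. The Lhx6-/- group was homozygous for the Lhx6-CreER knock-in allele, a constitutive allele that removes Lhx6 function wherever the gene is used, and per the study's methods pups of both sexes were collected. Tissue was cut by laser capture, which lifts chosen areas out of a section under a microscope, and the tissue of 8 molars was combined for each of the 3 control and 3 Lhx6-/- libraries. The sources used here do not say whether libraries share animals, so p-values measure the spread between these libraries.

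FGFs are mostly secreted proteins that bind receptor tyrosine kinases together with heparan sulfate, a sulfated sugar chain on cell surfaces and matrix. The receptors pass the signal through RAS to the kinase ERK, which raises transcription of Etv4, Etv5 and Dusp6 and of the inhibitors that damp the pathway. In the developing tooth, FGFs are exchanged between the dental epithelium and the mesenchyme beneath it and act on growth and shape in both layers.

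The abundant FGF genes stood at about the same level in both genotypes, while many ligands were too scarce to bound closely. The 95% interval of the difference lay inside 1.5-fold for 18 of 36 tested members (50%), beside 54.2% of all tested genes. The clearest difference was in Flrt1, a membrane protein that binds FGF receptors, which stood 2.22-fold higher in Lhx6-/- tissue. Fgf9, a ligand that the tooth epithelium makes in the embryo, and the scarce ligand Fgf5 were lower. None of these differences passed adjustment over all tested genes. The adjusted p was 0.0763 for Flrt1, 0.402 for Fgf9 and 0.245 for Fgf5 by edgeR with Benjamini-Hochberg adjustment. Fgf9 also depended on single libraries. Fgf5 rested on few counts and passed the filter on low values through the control libraries alone. The receptors Fgfr1, the most abundant of them, Fgfr2, Fgfr3 and Fgfrl1 did not differ beyond the spread between libraries, with 95% intervals of the difference inside 1.5-fold. The same held for Dusp6, Etv4, Etv5, Spry1, Spry2 and Spry4, transcripts that ERK signalling raises. FGF activity itself was not measured.

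The total of estimated counts ran from 60132323 to 76157433 per library. Lhx6 itself stood at 22.6 ± 4.83 counts per 1000000 counts (CPM) in control and 11 ± 1.57 CPM in Lhx6-/- libraries (SD, n = 3 each), with no overlap between the groups. The study reports that newborn mutants had lost Lhx6 protein from the molar mesenchyme. The source of the remaining transcript was not tested. Markers of dental mesenchyme and odontoblasts were present in every library, as were ameloblast genes, whose summed level was 114978 to 146335 CPM. Of 12 dental epithelium markers, 7 were lower in Lhx6-/- libraries by the rule given below, as were 3 of 5 blood genes, and the sum of 6 endothelial genes was 256 to 266 CPM in control and 290 to 340 CPM in Lhx6-/- libraries. Sex-linked transcripts differed between the pools too, with Y-linked genes summing to 14.6 to 58.0 CPM in control and 55.1 to 92.1 CPM in Lhx6-/- libraries. Xist, which female cells express from the inactive X, was at 792, 411 and 628 CPM in control and 290, 0.228 and 0.0537 CPM in Lhx6-/- libraries, without overlap. By this transcript, Lhx6-/- replicates 2 and 3 held almost no female tissue. In bulk tissue, fewer cells of a type and less RNA per cell cannot be told apart.

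Where values are given for each library, they stand in the order of replicates 1, 2 and 3. Differences were tested with edgeR's quasi-likelihood test across 20114 genes. A gene met the rule when its fold was 1.5 or more either way and its unadjusted p was under 0.05, and adjusted p-values are those of Benjamini and Hochberg over all tested genes. Of the 36 members tested, 3 met the rule, which is 8.33% beside 3.28% of all tested genes. One of them, Fgf5, passed the filter on low values through the control libraries alone. It was thus tested in the main fit only because its control values lay above the cutoff of the filter. Without Fgf5, 2 of 35 (5.71%) met the rule. Flrt1 was higher, where 1.58% of all genes met the rule, and Fgf5 and Fgf9 were lower, where 1.71% did. An unadjusted p under 0.05 was reached by 5 members (13.9%, beside 9.81% of all genes), with Fgf2 and Flrt2 added to these, so that 3 were higher and 2 lower, where 4.75% and 5.07% of all genes were. No member had an edgeR adjusted p under 0.05 (0 of 36, beside 0.403% of all genes), and DESeq2 called 1, Flrt1, and limma-trend 0. The groups did not overlap in 7 members (19.4%, beside 15.5% of all genes), of which 5 were higher and 2 lower in Lhx6-/- tissue, where 7.86% and 7.68% of all genes were. The median log2 fold change over the tested members was 0.07, beside -0.00 over all tested genes.

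**Figure D1:**
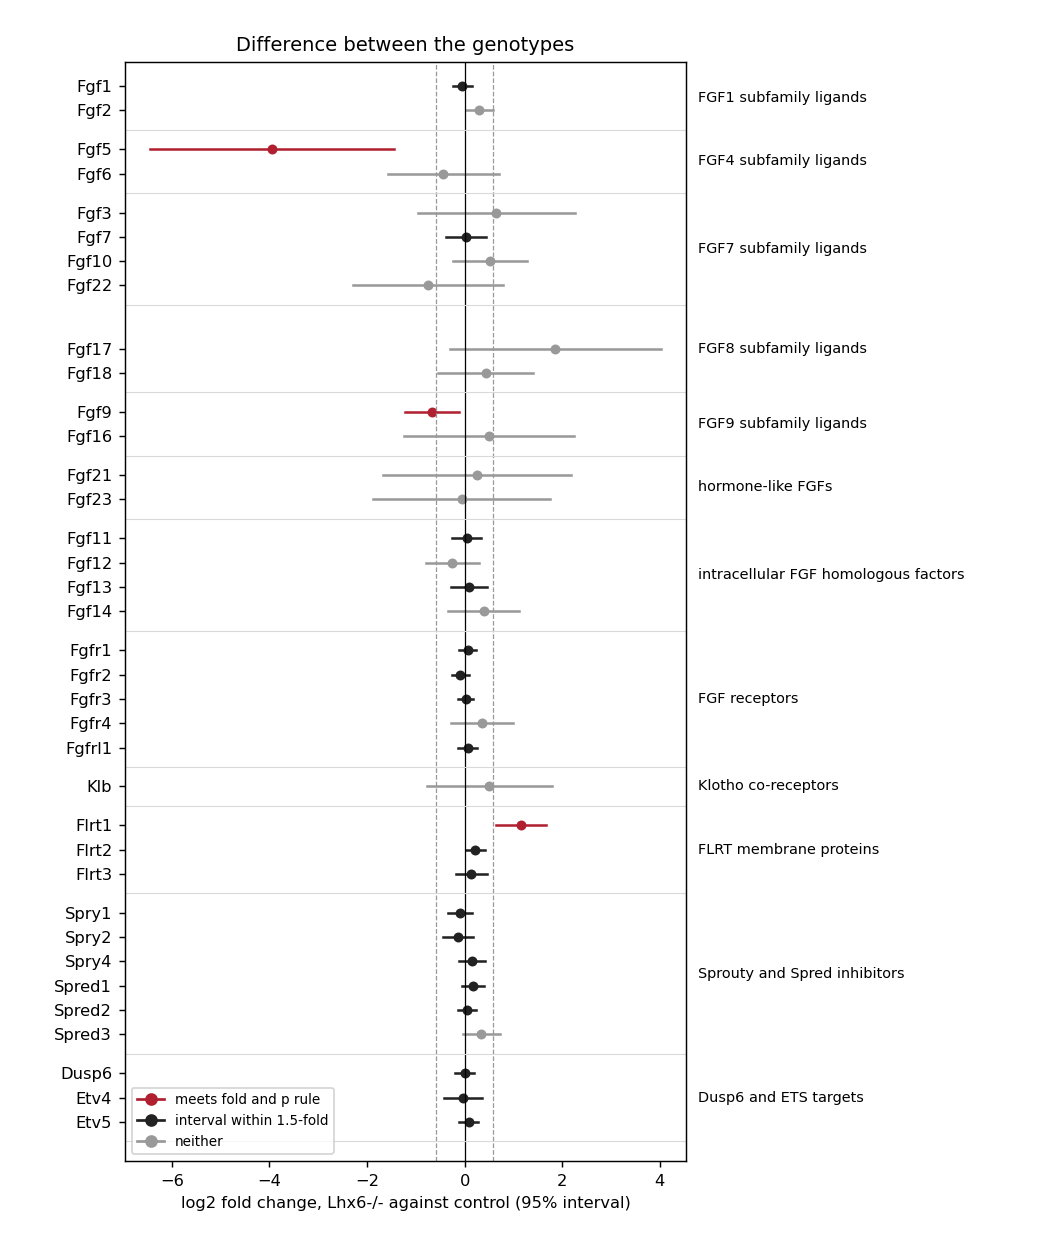
Log2 fold change of each tested FGF gene, Lhx6-/- against control, with the 95% interval of edgeR's quasi-likelihood test, grouped by role. Red points met the fold and p rule, black points have an interval inside 1.5-fold either way (dashed lines), and grey points have neither. Flrt1 lies at 1.15, Fgf9 at -0.67 and Fgf5 at -3.94, while the intervals of Fgfr1, Fgfr2, Fgfr3, Dusp6, Etv4 and Etv5 cross 0 within the dashed lines. The row without a point is Fgf8, which was too low to test.

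The start regions of the ligands and FLRT genes with an unadjusted p under 0.05 were read, since these are the members that the test singled out. RefSeq sequence on GRCm38.p6, the build also called mm10, was taken from 250 bases before to 50 bases after the transcription start. The table used matched 29 of the 37 member genes, with 37 start regions. Capitals mark TAATNA, a core read by homeodomain proteins of the LIM class, and CCGGAA, the core of the ETS family to which Etv4 and Etv5 belong, both searched on either strand, so that CCGGAA may stand as TTCCGG. The first motif occurred in 26.5% of all 32851 start regions of this length and in 9 of the 37 of member genes (24.3%). The second occurred in 14.9% of all and in 6 of 37 (16.2%), so neither share of the member genes lay far from that of all genes.
Fgf9, chr14:58072436-58072735, plus strand: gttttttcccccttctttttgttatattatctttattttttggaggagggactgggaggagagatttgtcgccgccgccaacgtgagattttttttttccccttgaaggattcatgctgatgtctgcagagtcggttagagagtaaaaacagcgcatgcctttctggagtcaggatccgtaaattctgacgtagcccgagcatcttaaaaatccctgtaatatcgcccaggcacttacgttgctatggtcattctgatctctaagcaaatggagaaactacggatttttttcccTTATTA
Fgf5, chr5:98253934-98254233, plus strand: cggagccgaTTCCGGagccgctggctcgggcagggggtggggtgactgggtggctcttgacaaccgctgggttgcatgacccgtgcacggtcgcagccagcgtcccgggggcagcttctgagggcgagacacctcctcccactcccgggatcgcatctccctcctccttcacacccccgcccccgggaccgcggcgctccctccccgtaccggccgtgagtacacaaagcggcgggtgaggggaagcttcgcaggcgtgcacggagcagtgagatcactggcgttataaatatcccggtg
Fgf2, chr3:37348403-37348702, plus strand: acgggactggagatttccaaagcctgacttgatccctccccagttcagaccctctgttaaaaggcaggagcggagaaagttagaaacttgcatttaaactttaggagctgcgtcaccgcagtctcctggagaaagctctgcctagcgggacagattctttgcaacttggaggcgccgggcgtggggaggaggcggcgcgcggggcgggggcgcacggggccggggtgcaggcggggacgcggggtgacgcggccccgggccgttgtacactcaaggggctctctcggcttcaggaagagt
Flrt2, chr12:95691976-95692275, plus strand: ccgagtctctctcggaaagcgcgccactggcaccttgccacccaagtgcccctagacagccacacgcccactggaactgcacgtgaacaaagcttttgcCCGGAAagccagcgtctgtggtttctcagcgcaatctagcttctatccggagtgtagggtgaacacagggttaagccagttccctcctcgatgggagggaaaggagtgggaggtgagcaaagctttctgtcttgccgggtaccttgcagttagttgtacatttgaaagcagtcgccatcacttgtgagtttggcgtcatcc

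The Fgf9 region holds 1 TAATNA match, which begins at base 295 of the 300 shown and so lies after the start. The Fgf5 and Flrt2 regions hold 1 CCGGAA match each, beginning at bases 10 and 100, and the Fgf2 region holds neither motif. A match describes these letters and not a bound site. Flrt1 has no entry in the table.

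Among the secreted ligands, levels were first compared with each other in control tissue as CPM per kilobase of exon, which corrects for gene length. Fgf1, which can bind every FGF receptor, was the most abundant ligand at 6.19 ± 0.616 CPM per kilobase (SD, n = 3). It was followed by Fgf7 at 1.51 ± 0.306 and Fgf2 at 1.16 ± 0.108, which overlap within their SDs, and by Fgf9 at 0.591 ± 0.0855 and Fgf18 at 0.471 ± 0.140 CPM per kilobase, which also overlap. The other secreted paracrine ligands stood at or below 0.219 CPM per kilobase. Summed over the 13 secreted paracrine ligands measured, the level was 10.8 ± 1.03 CPM per kilobase in control and 11.1 ± 0.519 in Lhx6-/- tissue (SD, n = 3 each), a difference smaller than the spread.

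**Figure D2:**
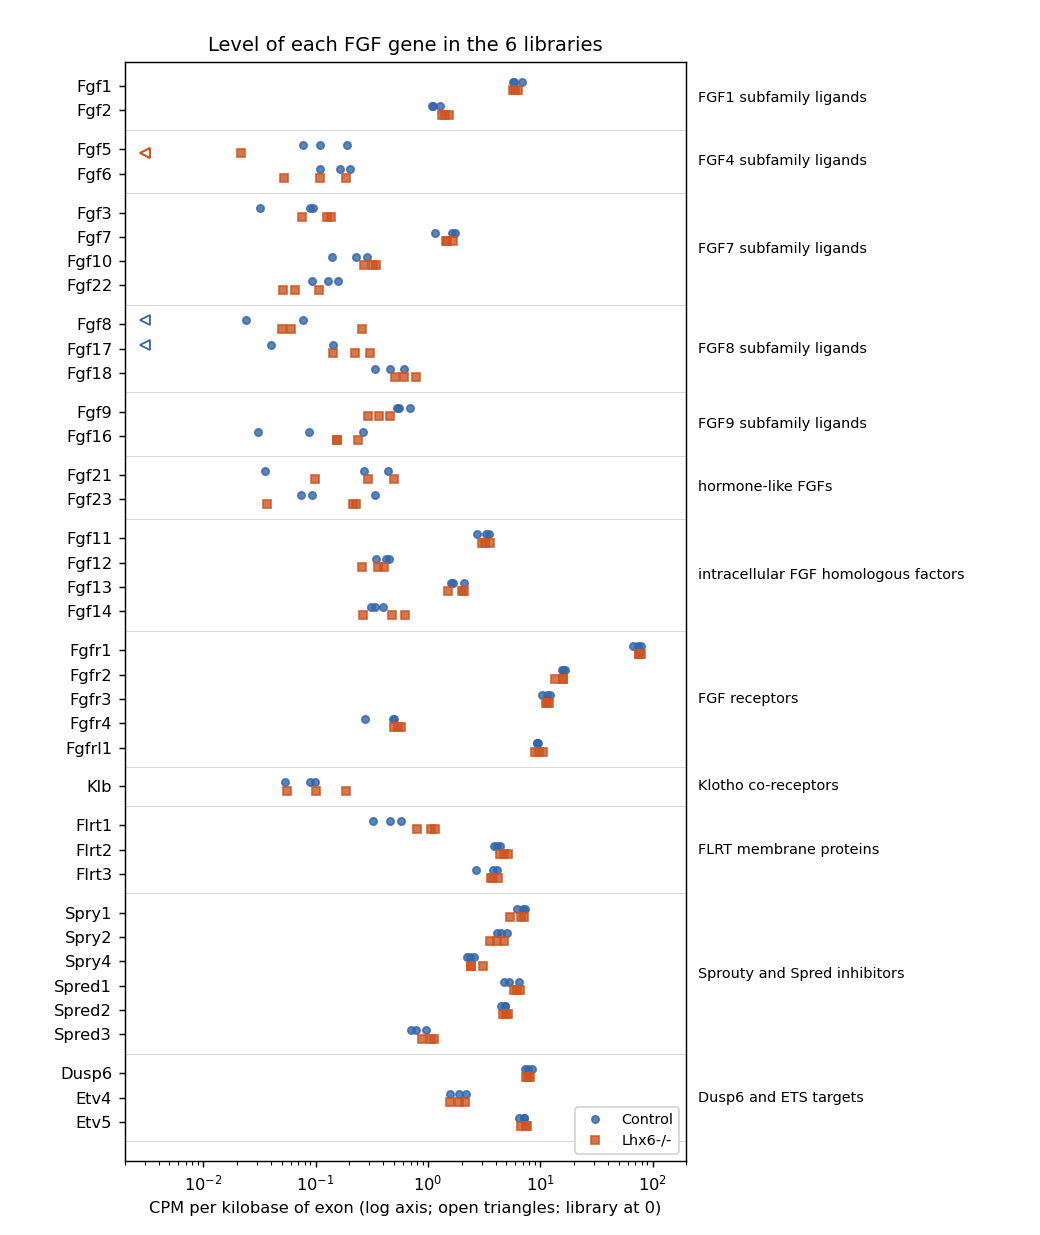
Level of each FGF gene in each of the 6 libraries, as CPM per kilobase of exon on a log axis, grouped by role, with circles for control and squares for Lhx6-/- libraries. Open triangles at the left edge mark libraries at 0. The receptors Fgfr1, Fgfr2 and Fgfr3 and the feedback genes lie to the right with the genotypes on top of each other, while most ligands lie below 1 CPM per kilobase.

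Fgf9 signals from epithelium to mesenchyme in the early tooth. Its level was 2.57, 3.2 and 2.47 CPM in the control libraries against 1.36, 2.12 and 1.69 CPM in the Lhx6-/- libraries, from 83 to 214 counts per library. Every Lhx6-/- value was below every control value. The log2 fold change was -0.67 (standard error 0.26, 95% interval -1.23 to -0.11, unadjusted p = 0.0227 and adjusted p = 0.402 by edgeR with Benjamini-Hochberg adjustment). Fgf9 met the rule in 12 of 15 alternative fits. The edgeR p exceeded 0.05 when control replicate 2 (0.0864), Lhx6-/- replicate 1 (0.0804) or Lhx6-/- replicate 3 (0.054) was left out.

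Most dental epithelium markers were also lower. Of 12 markers, 7 met the rule (58.3%, beside 3.28% of all tested genes). An unadjusted p under 0.05 by edgeR was reached by 8 (66.7%, beside 9.81%). The other 4 (Epcam, Shh, Cdh1 and Krt15) did not reach it and had overlapping groups. All 12 fitted values were below 0, the groups did not overlap in 8 (66.7%, beside 15.5% of all tested genes), and none was at 0 in every library. Their summed level was 1273, 2014 and 1376 CPM in the control libraries against 886, 989 and 1028 CPM in the Lhx6-/- libraries. Krt14, a keratin of the epithelial basal layer, had a log2 fold change of -0.62 (standard error 0.13). Control replicate 2 was the highest library for Fgf9 and for the marker sum, while among Lhx6-/- libraries replicate 2 was highest for Fgf9 and replicate 3 for the marker sum. The 7 ameloblast genes, a separate list from the same epithelium, differed less. Of these, 0 met the rule, 6 were lower and 1 higher, and their median log2 fold change was -0.09. Amtn alone of the 7 had an unadjusted p under 0.05 (log2 fold change -0.54, adjusted p = 0.021 by edgeR with Benjamini-Hochberg adjustment). The part of epithelial content in the level of Fgf9 was not tested.

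**Figure D3:**
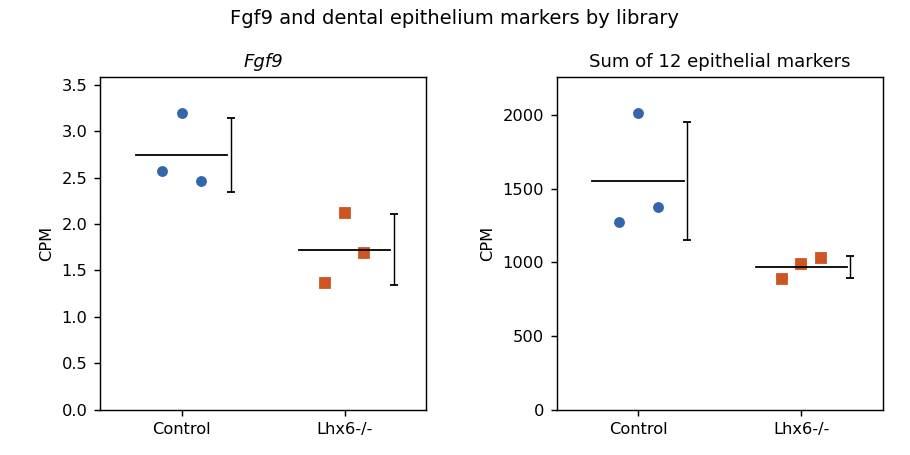
Fgf9 (left) and the sum of 12 dental epithelium markers (right) in each library, in CPM from 0, with lines for the mean and bars for the SD of 3 libraries. In both panels the 3 Lhx6-/- libraries lie below the 3 control libraries, between 1.36 and 2.12 CPM for Fgf9 and between 886 and 1028 CPM for the markers.

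Fgf16, of the same subfamily as Fgf9, was low, at 0.21 ± 0.2 CPM in control and 0.301 ± 0.0794 CPM in Lhx6-/- tissue (SD, n = 3 each). Its interval of the log2 fold change ran from -1.24 to 2.25, which includes 2-fold changes in either direction.

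Fgf5, a ligand known for its role in ending hair growth, was near the limit of what these libraries can show. It had 12, 32 and 16 counts in the control libraries against 0, 0 and 4 counts in the Lhx6-/- libraries. As levels these were 0.193, 0.479 and 0.271 CPM in control, and 0, 0 and 0.0537 CPM in Lhx6-/- tissue, without overlap. The fitted log2 fold change was -3.94 (standard error 1.15, 95% interval -6.44 to -1.45, unadjusted p = 0.00485 and adjusted p = 0.245 by edgeR with Benjamini-Hochberg adjustment). Without Lhx6-/- replicate 3, both remaining libraries stood at 0. Set against an assumed 3 counts in each of these, the control mean of Fgf5 was 7.03-fold higher. This ratio is not a lower bound, since it leaves out the library with counts and the counting error of the control libraries. Fgf5 passed the filter on low values through the control libraries alone, as stated above. It met the rule in the 14 alternative fits that tested it, but these fits reuse the same few counts and add no independent support. The filter of 10 counts in every library left it out.

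Fgf6, the relative of Fgf5 known from skeletal muscle, was at 0.771, 0.509 and 0.947 CPM in the control libraries against 0.246, 0.51 and 0.873 CPM in the Lhx6-/- libraries. These ranges overlap, and the log2 fold change was -0.44 (standard error 0.52).

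Fgf2, a ligand stored on heparan sulfate in the matrix, was slightly higher in Lhx6-/- tissue. Its level was 8.69, 7.36 and 7.51 CPM in the control libraries against 9.57, 10.5 and 9.07 CPM in the Lhx6-/- libraries, with no overlap. The log2 fold change was 0.30 (standard error 0.13, 95% interval 0.02 to 0.59, unadjusted p = 0.038 and adjusted p = 0.479 by edgeR with Benjamini-Hochberg adjustment). The edgeR p exceeded 0.05 without control replicate 2 (0.0949), control replicate 3 (0.0939), Lhx6-/- replicate 1 (0.0654) or Lhx6-/- replicate 2 (0.138), and with the replicate number as a block (0.0556). Fgf2 shares 640 exon bases with the antisense gene Nudt6, and the strand setting of the counting is not given in the sources used here.

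Fgf1 showed no such difference, at 31.5, 37.7 and 32.2 CPM in the control libraries against 31.1, 34.4 and 32.5 CPM in the Lhx6-/- libraries. The log2 fold change was -0.05, with a 95% interval of -0.24 to 0.15. Its share of the summed secreted ligands, counted per kilobase, was 57.1%, 57.3% and 56.7% in the control libraries against 53.5%, 53.9% and 54.1% in the Lhx6-/- libraries. The shares did not overlap, although the levels of Fgf1 did. Over the same sum, Fgf2 held 10.8 ± 1.82% in control and 12.9 ± 0.606% in Lhx6-/- tissue, and Fgf9 held 5.44 ± 0.308% and 3.32 ± 0.584% (SD, n = 3 each). These shares are descriptions, since 3 libraries against 3 allow no exact permutation p below 0.1.

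The FGF7 subfamily holds ligands that mesenchyme sends to epithelium. Fgf7, the keratinocyte growth factor, stood at 3.78, 5.66 and 5.28 CPM in the control libraries against 4.71, 4.81 and 5.46 CPM in the Lhx6-/- libraries. Its log2 fold change was 0.03, with a 95% interval of -0.39 to 0.44. Fgf10, which drives epithelial growth and budding, was at 1.01 ± 0.347 CPM in control and 1.44 ± 0.193 CPM in Lhx6-/- tissue (SD, n = 3 each), and its log2 interval of -0.24 to 1.27 includes differences above 2-fold. Fgf3, which dental mesenchyme expresses beside Fgf10 in the embryo, was at 0.168 ± 0.0807 and 0.264 ± 0.0786 CPM, and Fgf22 at 0.285 ± 0.0729 and 0.168 ± 0.066 CPM (SD, n = 3 each). None of the 4 had an unadjusted p under 0.05 by edgeR or overlap-free groups.

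The FGF8 subfamily, known from embryonic patterning and skeletal growth, was low throughout. Fgf18, its most abundant member, stood at 0.402, 0.733 and 0.541 CPM in the control libraries against 0.933, 0.725 and 0.605 CPM in the Lhx6-/- libraries, which overlap (log2 fold change 0.43, standard error 0.44). Fgf17 had 15, 0 and 4 counts in the control libraries against 23, 38 and 18 counts in the Lhx6-/- libraries. Its groups did not overlap in CPM, by the narrow margin of 0.241 in the highest control to 0.242 in the lowest Lhx6-/- library, and the log2 fold change was 1.86 (standard error 0.99, adjusted p = 0.604 by edgeR with Benjamini-Hochberg adjustment). Of the control libraries only 1 reached the CPM floor of the filter, while all 3 Lhx6-/- libraries did. Fgf8 had 2, 7 and 0 counts in control and 5, 26 and 5 counts in Lhx6-/- libraries and was too low to test.

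The hormone-like ligands Fgf21, which acts on metabolism, and Fgf23, which controls phosphate, stood at means of 0.235 to 0.305 CPM in both genotypes. Fgf21 ranged from 0.0338 to 0.418 CPM in control and from 0.094 to 0.47 CPM in Lhx6-/- libraries, which overlap. The 4 FGF homologous factors stay inside the cell and bind sodium channels rather than receptors. Fgf11, the most abundant of them, was at 10.7, 8.36 and 10 CPM in the control libraries against 10.9, 9.26 and 9.81 CPM in the Lhx6-/- libraries. Log2 fold changes of the 4 ran from -0.25 for Fgf12 to 0.39 for Fgf14, with 0.08 for Fgf13, and none had an unadjusted p under 0.05 by edgeR.

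**Figure D4:**
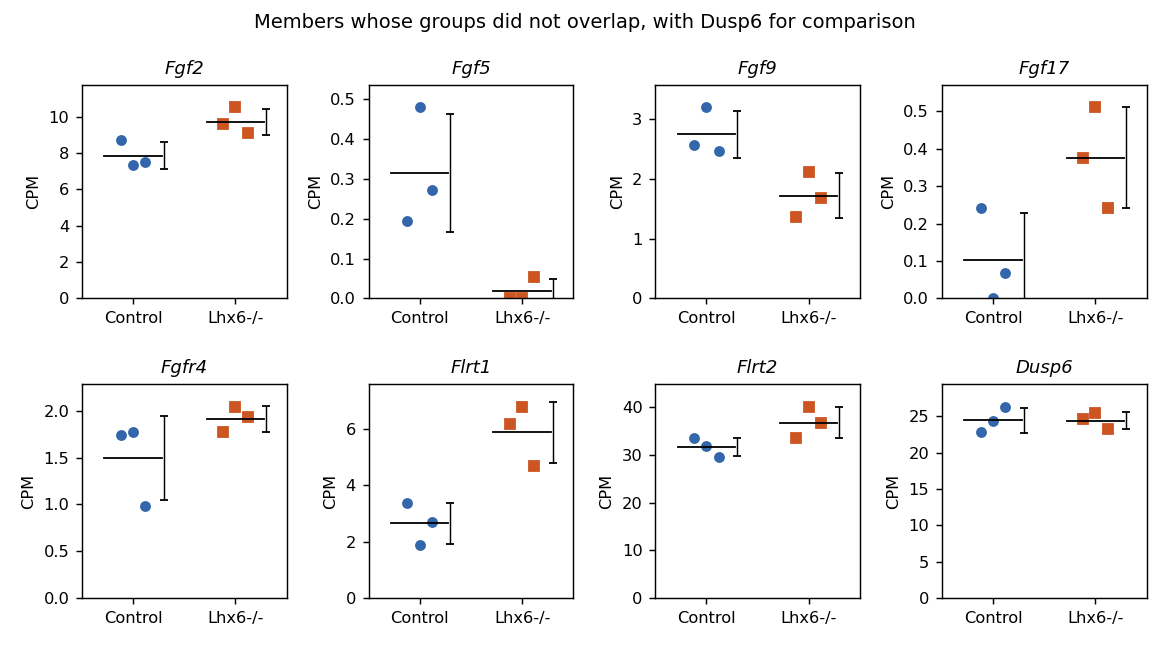
CPM in each library of the 7 FGF genes whose groups did not overlap, and of Dusp6 for comparison, each axis from 0, with lines for the mean and bars for the SD of 3 libraries. Flrt1 lies at 1.90 to 3.36 CPM in control and 4.69 to 6.79 CPM in Lhx6-/- libraries. Fgf5 lies at 0.193 to 0.479 CPM in control and 0 to 0.0537 CPM in Lhx6-/- libraries, from few counts. Fgf17, Fgfr4 and Flrt2 have neighbouring points that nearly touch across the groups.

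The receptors were led by Fgfr1, the main receptor of mesenchymal cells. It stood at 783, 658 and 736 CPM in the control libraries against 743, 779 and 745 CPM in the Lhx6-/- libraries, so the Lhx6-/- values lie inside the control range. The log2 fold change was 0.06, with a 95% interval of -0.12 to 0.24. In control tissue, Fgfr1 reached 73.5 ± 6.4 CPM per kilobase, above Fgfr2 at 16.1 ± 0.391, Fgfr3 at 11.4 ± 0.868, Fgfrl1 at 9.38 ± 0.107 and Fgfr4 at 0.422 ± 0.126 (SD, n = 3 each). These means are separated by more than their SDs at each step. Fgfrl1 is a receptor without a kinase domain.

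Of the 4 signalling receptors summed per kilobase, Fgfr1 held 72.4 ± 1.44% in control and 73.8 ± 0.952% in Lhx6-/- tissue, and Fgfr2 held 15.9 ± 1.48% and 14.6 ± 0.989% (SD, n = 3 each). Fgfr2, which epithelium uses in forms distinct from those of mesenchyme, had a log2 fold change of -0.09 (95% interval -0.25 to 0.08). Fgfr3 stood at 0.02 (-0.14 to 0.18) and Fgfrl1 at 0.06 (-0.13 to 0.25) on the same scale. Gene totals do not separate the receptor splice forms. Fgfr2 shares 314 exon bases with Ctbp2 on the same strand, and Fgfr3 shares 998 and Fgfr1 164 with opposite-strand neighbours, as Fgf14 (220) and Fgf22 (82) also do.

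Fgfr4 was scarce, at 1.74, 1.77 and 0.981 CPM in the control libraries against 1.77, 2.04 and 1.93 CPM in the Lhx6-/- libraries. Control replicate 3 alone was low, and the groups did not overlap only by a gap that vanishes when rounded to 1.77 CPM. For Fgfr4 the log2 fold change was 0.36 (standard error 0.30, adjusted p = 0.778 by edgeR with Benjamini-Hochberg adjustment). Klb, the co-receptor of hormone-like FGFs, stood at 0.241, 0.449 and 0.406 CPM in the control libraries against 0.851, 0.457 and 0.255 CPM in the Lhx6-/- libraries, which overlap.

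The 3 FLRT genes encode membrane proteins with leucine-rich repeats that bind FGF receptors and adhesion partners on other cells. Flrt1 lies on chr19:7092001-7105729 of mm10, on the minus strand. It stood at 3.36, 1.90 and 2.71 CPM in the control libraries against 6.19, 6.79 and 4.69 CPM in the Lhx6-/- libraries, from 127 to 506 counts per library. The lowest Lhx6-/- library lay above the highest control library. The mean rose from 2.65 ± 0.73 to 5.89 ± 1.08 CPM (SD, n = 3 each), and the log2 fold change was 1.15 (standard error 0.23, 95% interval 0.64 to 1.66).

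The unadjusted p of Flrt1 was 0.000364 and its adjusted p was 0.0763 by edgeR with Benjamini-Hochberg adjustment. Flrt1 met the fold and p rule in all 15 alternative fits, with log2 fold changes of 0.96 to 1.36. The adjusted p was under 0.05 in 2 of them, DESeq2 (0.000883) and edgeR without control replicate 1 (0.0414), and the range over all 15 was 0.000883 to 0.34. Flrt1 lies inside Macrod1, a gene of the opposite strand, with 0 shared exon bases. Macrod1 stood at 10.4, 14.4 and 11 CPM in the control libraries against 10.9, 9.22 and 13.3 CPM in the Lhx6-/- libraries, a log2 fold change of -0.10 (95% interval -0.45 to 0.25).

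Flrt2, which mesenchymal tissues express in many organs, was the most abundant of the 3. Its level was 33.5, 31.9 and 29.7 CPM in the control libraries against 33.6, 40.1 and 36.7 CPM in the Lhx6-/- libraries. The groups did not overlap, though the highest control and the lowest Lhx6-/- library were 33.5 and 33.6 CPM. The log2 fold change was 0.22 (standard error 0.09, 95% interval 0.02 to 0.41, unadjusted p = 0.0306 and adjusted p = 0.447 by edgeR with Benjamini-Hochberg adjustment). The edgeR p exceeded 0.05 without control replicate 3 (0.112), Lhx6-/- replicate 2 (0.15) or Lhx6-/- replicate 3 (0.0543).

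Flrt3, the third family member, was at 17.1 ± 3.62 CPM in control and 18.9 ± 1.28 CPM in Lhx6-/- tissue (SD, n = 3 each), and its log2 interval was -0.17 to 0.45. Markers of other tissue parts were also higher in Lhx6-/- libraries: 8 of 9 dental mesenchyme genes, whose sum was 1398 to 1465 CPM in control and 1557 to 1571 CPM in Lhx6-/- libraries, and all 6 endothelial genes. Vim made up most of the mesenchyme sum, at a mean of 984 CPM in control and 1072 CPM in Lhx6-/- libraries (unadjusted p = 0.116 by edgeR). The sum of 4 odontoblast genes was 4967 to 5434 CPM in control and 6085 to 6780 CPM in Lhx6-/- libraries, with Dspp at a log2 fold change of 0.33 and Mepe at -0.30. None of the 6 endothelial or 9 mesenchyme genes met the fold and p rule by edgeR, beside 3.28% of all tested genes, and none was at 0 in every library. An unadjusted p under 0.05 was reached by 4 (66.7%) and 5 (55.6%) of them, beside 9.81% of all tested genes. Of these, Msx2 was lower (log2 fold change -0.24) and the others higher. The part of tissue content in the levels of Flrt1, Flrt2 and Fgf2 was not tested. Nor was the part of the sex of the pools in the level of any member, among them Fgf5, Fgf9 and the X-linked Fgf13 and Fgf16.

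The inhibitors that ERK signalling induces were level. Spry1, the most abundant inhibitor per kilobase in control tissue at 6.83 ± 0.576 (SD, n = 3), stood at 20.4, 18.0 and 21.2 CPM in the control libraries against 20.7, 19.5 and 15.7 CPM in the Lhx6-/- libraries. The log2 fold change was -0.09, with a 95% interval of -0.34 to 0.16. Spry2 and Spry4, which like Spry1 block signalling upstream of ERK, had log2 fold changes of -0.13 (-0.44 to 0.18) and 0.15 (-0.12 to 0.42). The Spred proteins restrain RAS. Spred1 stood at 0.17 (-0.06 to 0.40), Spred2 at 0.05 (-0.14 to 0.24) and Spred3 at 0.34 (-0.04 to 0.72) on the log2 scale, so that of the inhibitors the Spred3 interval alone reached past 1.5-fold. Spry1 shares 710 exon bases with Gm42922, and Spred3 shares 202 with Ggn.

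Dusp6 encodes a phosphatase that switches ERK off, and its transcript follows ERK activity in many tissues. It stood at 22.8, 24.3 and 26.3 CPM in the control libraries against 24.6, 25.5 and 23.2 CPM in the Lhx6-/- libraries. The groups overlap in full, and the log2 fold change was -0.00, with a 95% interval of -0.20 to 0.19. Etv5 was at 28.4 ± 1.56 and 30.0 ± 2.02 CPM and Etv4 at 5.89 ± 0.971 and 5.78 ± 0.863 CPM (SD, n = 3 each), with log2 intervals of -0.11 to 0.27 and -0.42 to 0.36.

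Over the 9 inhibitors, Dusp6 and ETS genes together, 0 had an unadjusted p under 0.05 by edgeR, beside 9.81% of all tested genes. Likewise 0 were without overlap between groups, beside 15.5% of all tested genes. With 9 genes, a count of 0 lies near both shares. The summed level of the 9 was 164 ± 2.81 CPM in control and 171 ± 5.83 CPM in Lhx6-/- tissue (SD, n = 3 each). Of the 9, 8 had an interval inside 1.5-fold either way, which 54.2% of all tested genes had. An interval of this kind bounds the change in the tissue as a whole and does not show that no cell type differed. Intervals also narrow with more counts, and all tested genes include ones with few counts, so these shares are not matched for level.

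The other genes of the pathway were taken as 4 lists, of which 75 genes were tested. None of the 75 met the fold and p rule by edgeR, beside 3.28% of all tested genes. An unadjusted p under 0.05 was reached by 9 (12%) and 14 (18.7%) were without overlap, beside 9.81% and 15.5% of all tested genes. The median log2 fold change of the 75 was 0.03, and 62 (82.7%) had an interval inside 1.5-fold, beside 54.2% of all tested genes. These shares too are not matched for level.

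In the cascade from receptor to ERK, 23 of 23 genes had intervals inside 1.5-fold, beside 54.2% of all tested genes, a share not matched for level. Control means of the cascade genes ran from 4.64 CPM (Frs3) to 124 CPM (Plcg1). Mapk3, which encodes ERK1 and was the most abundant per kilobase in control tissue, stood at 76.4, 73.2 and 90.2 CPM in the control libraries against 77.7, 76.3 and 72.3 CPM in the Lhx6-/- libraries. The 4 genes with an unadjusted p under 0.05 (17.4%, beside 9.81% of all tested genes), named here after their values were seen, went in both directions. Frs2, the adaptor that docks on FGF receptors, was at a log2 fold change of 0.27 and the scaffold Ksr1 at 0.34, while Hras was at -0.36 and Map2k2, which encodes MEK2, at -0.15. Their edgeR adjusted p-values were 0.178 to 0.478 by the Benjamini-Hochberg method.

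Of 19 further ERK feedback and response genes, 12 were higher and 7 lower. An unadjusted p under 0.05 was reached by 2 (10.5%, beside 9.81% of all tested genes). These, also named after their values were seen, were Fos at a log2 fold change of -0.24 and Nf1 at 0.17. Ier2, an immediate early gene and the most abundant per kilobase, was at 27.7, 25.8 and 27.7 CPM in the control libraries against 36.7, 29.8 and 24.7 CPM in the Lhx6-/- libraries, which overlap.

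Among 15 heparan sulfate proteoglycans and FGF binding proteins, 0 had an unadjusted p under 0.05 by edgeR, beside 9.81% of all tested genes. Gpc1, a glypican and the most abundant of them per kilobase, stood at 460, 438 and 443 CPM in the control libraries against 445, 434 and 464 CPM in the Lhx6-/- libraries, with a log2 interval of -0.15 to 0.16. Of 18 heparan sulfate enzymes tested, 3 (16.7%) had such a p and are named after their values were seen. Sulf2, which removes sulfate groups outside the cell and was the most abundant per kilobase, stood at 110, 94.0 and 99.4 CPM in the control libraries against 142, 120 and 113 CPM in the Lhx6-/- libraries, with no overlap. Its log2 fold change was 0.30 (95% interval 0.10 to 0.50, adjusted p = 0.264 by edgeR with Benjamini-Hochberg adjustment). Ndst3 was at 0.51 and Hs6st1, which adds sulfate, at -0.16.

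**Figure D5:**
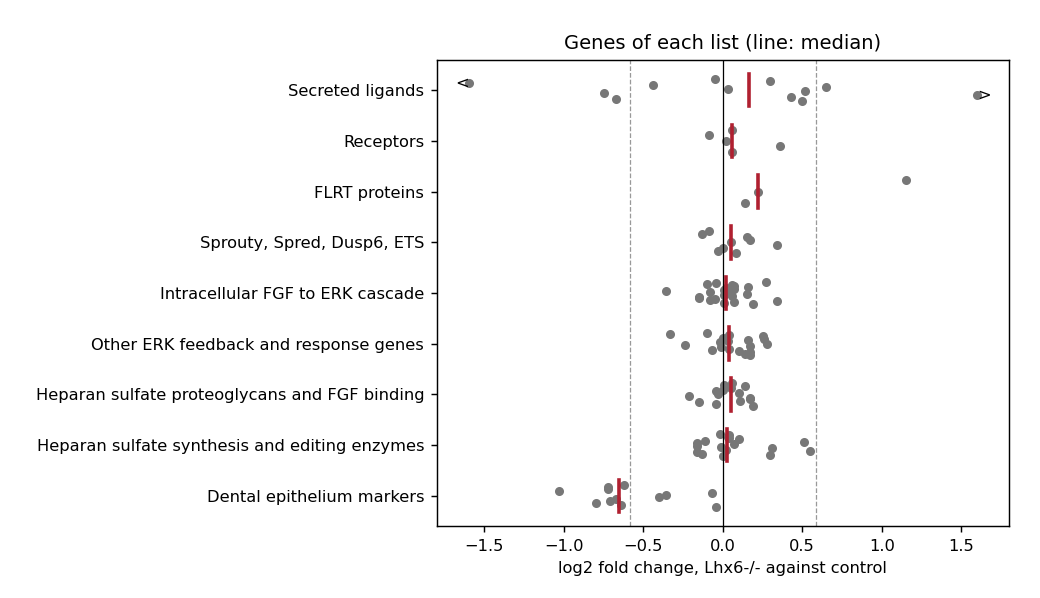
Log2 fold changes, Lhx6-/- against control, of the tested genes of each list, 1 point a gene, with red lines for the medians and dashed lines at 1.5-fold; points at the edge with arrowheads lie beyond the axis (Fgf5 and Fgf17). The ERK cascade genes all lie between -0.36 and 0.34, while the dental epithelium markers run from -1.03 to -0.04. The hormone-like and intracellular FGFs and Klb are not drawn.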

How the data were processed

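RNA was measured in apical tissue of the FDR, laser-captured from molar sections 12 µm thick, in 3 control and 3 Lhx6-/- libraries of 8 molars each. The authors trimmed single-end reads of 75 cycles, aligned them to mm10 with STAR 2.6.1d and deposited estimated counts of 23594 genes without normalization. The counter, its strand setting and the annotation are not given in the sources used here. A deposited table of the authors' own comparison (ratio, fold change, p-value and false discovery rate) gave gene names and coordinates alone, and the order of the count columns was checked against its total count per gene (largest relative deviation 1.14e-07).

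The estimated counts were rounded and scaled by TMM (factors 0.977 to 1.04). Genotype was tested two-sided with edgeR 4.0.16 (R 4.3.3), using the quasi-likelihood test with robust dispersion, edgeR's filter on low counts and Benjamini-Hochberg adjustment over 20114 genes. The rule of at least 1.5-fold with p under 0.05 follows the study's methods. CPM was divided by the union of exons in GENCODE vM21 to give the level per kilobase. The 95% intervals rest on a standard error that the F statistic gives for each fold change. The 15 alternative fits were scaling by total count, by upper quartile or by DESeq2's size factors, the tests of DESeq2 1.42.0 and limma-trend (limma 3.58.1, prior count 2), no filter, a filter of 10 counts in every library, non-robust dispersion, a replicate block and the omission of each library. The code was tested on simulated counts of 19520 genes, of which 200 were changed. At an adjusted p under 0.05, edgeR recovered 167 with 31 false calls, DESeq2 175 with 39 and limma-trend 164 with 22. With each tool the false calls were a larger share of the calls than this cutoff promises.

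Members and gene lists were chosen with earlier results of these data known. A member was given in every library when its unadjusted p was under 0.05, its groups did not overlap or it was the most abundant of its role per kilobase. Groups came from the genotype labels and replicate numbers from the sample titles. With 3 libraries a group the precision of abundant genes was limited by the spread between libraries, and that of genes with few counts also by counting error. Deviations from the group means in same-numbered libraries correlated at -0.031 to 0.026, so the title numbers show no pairing. Mutants were littermates of controls and sequencing was of 3 pairs, per the study's methods, but the members of each pair are not named there, and the count table numbers the Lhx6-/- libraries 2, 3 and 4 rather than 1, 2 and 3, so a pairing may exist that could not be fitted. Plots were made in Python 3.11.15 (matplotlib 3.10.9).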

Additional observations from a re-analysis of the deposited data

How the results depend on the processing

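The 3 members that met the fold and p rule became 5 with no fold limit and 2 to 4 when each library was left out in turn: Fgf9 was lost without control replicate 2, Lhx6-/- replicate 1 or Lhx6-/- replicate 3, and Fgf17 was added without control replicate 1 and by limma-trend. Members with an adjusted p under 0.05 numbered 0 with edgeR, 1 with DESeq2 and 0 to 1 across the omitted libraries, the 1 being Flrt1 without control replicate 1. Members without overlap numbered 7, but 4 under total-count scaling, where the narrow gaps close, and 7 to 12 across the omitted libraries (12 without control replicate 1 or 2, 11 without Lhx6-/- replicate 3), as fewer libraries overlap less easily. The median log2 fold change of members ran from 0.06 to 0.12, the highest without control replicate 1. Heparan sulfate enzymes that met the rule ran from 0 to 1, the 1 without Lhx6-/- replicate 2, and the other 3 pathway lists stayed at 0 under every fit.

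The sign turned under some fit for 13 members, none of which had a p under 0.05 by edgeR. Of these, 8 are among the 17 members given in every library. When each library was left out in turn, log2 fold changes ran from -0.09 to 0.04 for Fgf1, -0.13 to 0.14 for Fgf7, -0.05 to 0.12 for Fgf11, -0.35 to 0.94 for Fgf21, -0.01 to 0.12 for Fgfr1, -0.04 to 0.83 for Klb, -0.17 to 0.02 for Spry1 and -0.05 to 0.05 for Dusp6. Dusp6 was 0.01 under upper-quartile and 0.02 under total-count scaling. The cause was not tested. Lhx6 itself had an adjusted p of 0.021 by edgeR, which was 0.111 without control replicate 3 and, with Lhx6-/- replicate 2 or 3 left out, 0.11 or 0.0772.

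The sample titles number replicates 1 to 3 in each genotype. With these numbers as a replicate block, 3 members met the rule and 0 had an adjusted p under 0.05. The block left Fgf2 with an edgeR p of 0.0556. Fgf8 was too low to test, and each tested member with a control mean under 1 CPM had an interval that reached past 2-fold in at least 1 direction.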
